A study of Mus musculus with 4 samples.

Results

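The DNA damage checkpoint and repair genes form a set of 42 genes that sense broken or mispaired DNA, halt the cell cycle and carry out the main repair routes. They were found by gene symbol in the expression table of the series, which held 42 of 42, among 15429 genes in all. Polyadenylated RNA had been sequenced from mouse epiblast stem cells, which are pluripotent cells of the post-implantation embryo, after knockdown of Tox4, a gene for a chromatin-associated HMG-box protein. There were 2 libraries of cells transfected with Tox4 esiRNA and 2 of cells transfected with Luc esiRNA, the control directed at luciferase; esiRNA is a pool of short interfering RNAs cut from long RNA. All 4 libraries came from 1 line, OE7, which carries an Oct4-Gip transgene, a reporter of the pluripotency gene Oct4. In both groups the cells were at passages 21 to 25 on fibronectin in N2B27 medium with Activin A (20 ng/ml) and Fgf2 (12 ng/ml), and received 1000 ng of esiRNA by lipid transfection. Whether replicates were grown as separate cultures is not in the labels. The p-values therefore reflect only how far these 4 libraries vary, and that variation could be technical.

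DNA breaks are sensed by the MRN complex and the kinases ATM and ATR, which signal through CHEK2 and CHEK1 to delay division. Breaks in both strands are then repaired by homologous recombination, which copies the sister chromatid, or by end joining. The Fanconi anemia pathway removes crosslinks between the strands, and excision and mismatch repair replace damaged or mispaired bases. Pluripotent cells divide fast, and such cells are known to carry abundant repair and replication transcripts.

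Whole reads worked back from the deposited FPKM values (fragments scaled to gene length and library depth) came to 14739221 and 12778044 in the Tox4 libraries and 19008803 and 14998194 in the Luc libraries, and the members held between 112 and 6984 reads in a library. Tox4 itself was at 8.65 and 8.89 FPKM in the Tox4 libraries, against 16.7 and 17.5 FPKM in the Luc libraries, a ratio of 0.512. In limma it fell by 0.89 on the log2 scale (SE 0.05, adjusted p = 0.00228). The 5 markers listed for primed epiblast cells were present at 29.7 to 613 FPKM in every library. Of these Sox2 rose, with 93.2 and 87.6 FPKM in the Tox4 libraries and 76.3 and 76.4 FPKM in the Luc libraries (log2 fold change 0.24, adjusted p = 0.0355). Dnmt3b (-0.13, adjusted p = 0.0825), Otx2 (-0.15, adjusted p = 0.187) and Fgf5 (-0.09, adjusted p = 0.270) had Tox4 values below the Luc values without overlap and did not pass, and the Pou5f1 values overlapped. The naive markers Klf4 and Esrrb were at 0.625 to 1.19 FPKM, and the 4 fibroblast markers summed to 9.76 and 11.4 FPKM in the Tox4 libraries and 10.4 and 10.8 FPKM in the Luc libraries. Of 3 neuroectoderm markers, Sox1 rose (12.3 and 13.7 FPKM in the Tox4 libraries, 5.28 and 5.57 FPKM in the Luc libraries, adjusted p = 0.00263) and so did Fabp7 (10.01 and 9.36 FPKM in the Tox4 libraries, 5.07 and 4.96 FPKM in the Luc libraries, adjusted p = 0.00407), while Pax6 was at 0.112 to 0.778 FPKM. Mitochondrial genes took 1.05% and 1.05% of reads in the Tox4 libraries and 0.864% and 0.840% in the Luc libraries. The part of these markers and of the mitochondrial share in the results for the repair genes was not tested.

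The repair genes differed far more in level from one another than between the groups. All 42 passed the filter of a mean of at least 1 FPKM. Their means over the 4 libraries ran from 3.69 FPKM for Rad52 to 167.8 FPKM for H2afx, with a median of 15.1 FPKM, against 11.8 FPKM over the 12403 genes tested. The excision repair genes Apex1, Lig1, Xrcc1 and Parp1, the mismatch repair gene Msh6 and H2afx were the most abundant. The lowest were Rad52, Lig4, Atm, Fancb, Fancc and Prkdc, each under 5 FPKM. Levels are per length. Lengths worked back from the FPKM values were put on a scale set by matches to exon lengths in GENCODE. On that scale they were 0.256 to 0.986 of the GENCODE exon length (median 0.776). The order of genes close in level therefore depends on the annotation.

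**Figure D1:**
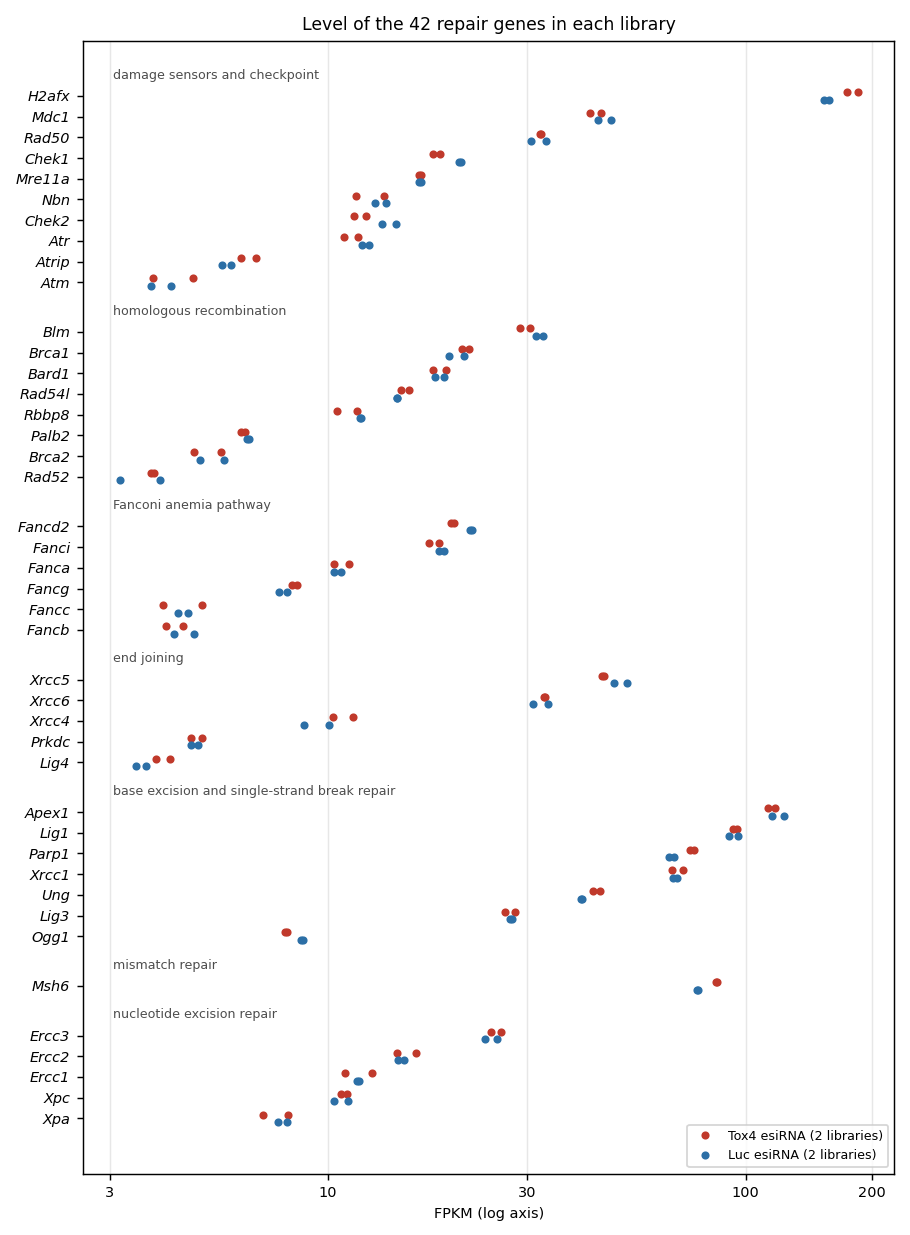
FPKM (log axis) of the 42 repair genes in each of the 4 libraries, by role and ordered by mean level; each point is 1 library, red for Tox4 esiRNA and blue for Luc esiRNA. Levels ran from a mean of 3.69 FPKM for Rad52 to 167.8 FPKM for H2afx, while the points of each gene lie close together.

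Whether these transcripts differed after the knockdown was tested between the 2 groups. With limma on log2(FPKM + 1), 0 of the 42 repair genes passed an adjusted p of 0.05 over the 12403 genes tested, of which 4.51% passed, 1.89% as higher and 2.62% as lower. At an unadjusted p under 0.05 there were 8 members, 4 higher and 4 lower, where 21.6% of all genes tested were past that level. Tox4 and Luc values were separate, without overlap, for 18 members (42.9%), 9 higher and 9 lower, against 52.0% of all genes tested, 25.3% higher and 26.7% lower. The median log2 fold change was 0.0087 over the members and -0.0034 over all genes tested, and the members ran from -0.22 (Chek2) to 0.20 (H2afx). The median size of the log2 fold change was 0.06 over the members and 0.08 over all genes tested. It was larger than both differences between replicates for 38.1% of members and 40.4% of all genes tested, although a difference of means of 2 libraries varies less than one between single libraries.

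The 95% intervals bound these differences without adjustment for the number of genes. For 42 of 42 members the interval lay inside a 1.5-fold change in either direction, and for 36 inside a 1.25-fold change. The lowest bound was -0.37 for Chek2 and the highest 0.39 for Xrcc4. On log2(FPKM + 0.1), which compresses low values less, they were -0.39 and 0.43 for the same genes, and again 42 members lay inside 1.5-fold. The number of members called differed between processing choices. When whole reads were fitted with limma-voom, 3 members were higher (H2afx, Msh6, Parp1) and 3 lower (Chek1, Chek2, Fancd2), with 11.8% of all genes called. With genes below a mean of 5 FPKM left out, 36 members were tested. Of these Msh6, Parp1 and H2afx passed, with 9.28% of the 9066 genes kept. With quantile normalization Msh6 and H2afx passed, with 4.35% of all genes tested.

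**Figure D2:**
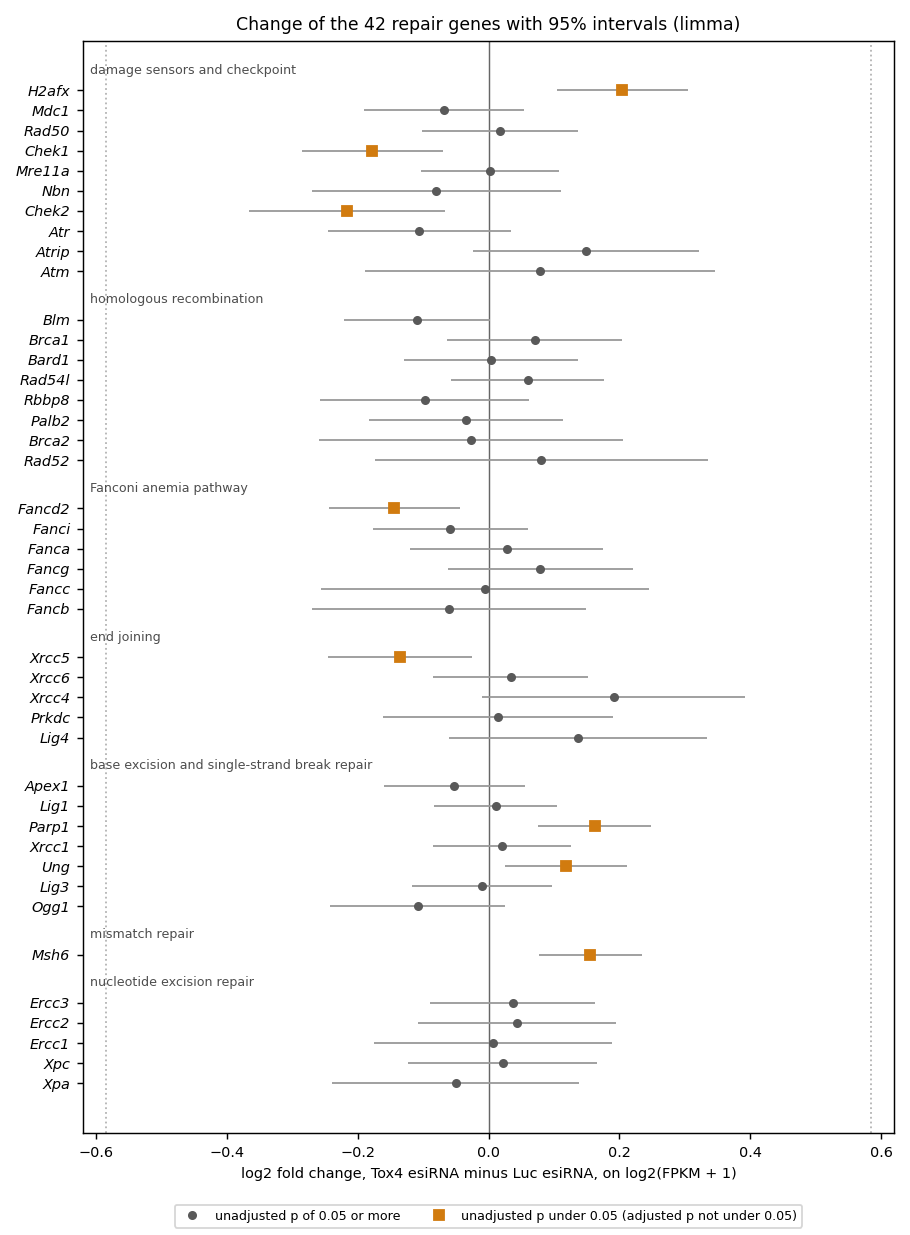
Log2 fold change of each of the 42 repair genes, Tox4 esiRNA minus Luc esiRNA, on log2(FPKM + 1), with 95% limma intervals (lines); dotted lines mark a 1.5-fold change and orange squares the 8 genes with an unadjusted p under 0.05. None of the 42 passed after adjustment, and each interval lies inside the dotted lines.

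Among the 10 damage sensor and checkpoint genes, H2afx was nearest to passing as higher, and both checkpoint kinase genes were lower without passing. H2afx encodes the histone variant that is phosphorylated around a break and so marks it. It was at 174 and 185 FPKM in the Tox4 libraries and 158 and 154 FPKM in the Luc libraries. Both Tox4 values lay above both Luc values, with a log2 fold change of 0.20 (SE 0.04, 95% interval 0.10 to 0.30, limma adjusted p = 0.0527). It passed without Tox4 replicate 1 (adjusted p = 0.0341), did not when any other single library was left out, and passed in limma-voom (adjusted p = 0.00304). H2afx (chromosome 9, 44334694 to 44336077, plus strand, GRCm38) shares 141 bases of exon with Gm44335 on the opposite strand. Part of its RNA is known to end in a stem-loop without a poly(A) tail, and that form is not captured by poly(A) selection.

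Chek2 encodes the kinase that ATM activates at breaks. It was at 11.5 and 12.3 FPKM in the Tox4 libraries, against 14.6 and 13.5 FPKM in the Luc libraries, and the groups did not overlap (log2 fold change -0.22, SE 0.06, limma adjusted p = 0.112). Chek1, the kinase that ATR activates at stalled forks, was at 18.5 and 17.8 FPKM with Tox4 esiRNA and 20.8 and 20.6 FPKM with Luc esiRNA. Again the groups did not overlap (-0.18, SE 0.04, adjusted p = 0.0845). In limma-voom both passed, with adjusted p = 0.0404 for Chek2 and 0.0212 for Chek1. Atrip, the partner that brings ATR to single-stranded DNA, had a log2 fold change of 0.15 and Atr one of -0.11. Neither passed in limma (adjusted p = 0.295 and 0.352). Atrip shares exon with Trex1 on the same strand, so its reads may include those of Trex1. The kinase gene Atm was at 4.76 and 3.82 FPKM in the Tox4 libraries and 3.78 and 4.21 FPKM in the Luc libraries, so the groups overlapped. The MRN subunit genes Mre11a, Rad50 and Nbn had log2 fold changes of 0.0026, 0.02 and -0.08, and the scaffold gene Mdc1, whose protein binds phosphorylated H2AX, one of -0.07, all with overlapping groups.

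The 8 homologous recombination genes held no call and no unadjusted p under 0.05, against 4.51% and 21.6% of all genes tested. Their log2 fold changes ran from -0.11 for Blm to 0.08 for Rad52. Blm, the helicase that dissolves crossed DNA strands, was at 30.5 and 28.9 FPKM in the Tox4 libraries and 32.7 and 31.5 FPKM in the Luc libraries, without overlap (limma adjusted p = 0.238). Rad52, a strand-annealing protein gene, was at 3.84 and 3.78 FPKM with Tox4 esiRNA and 3.96 and 3.18 FPKM with Luc esiRNA, on 154 to 243 reads, and the groups overlapped (adjusted p = 0.717). Brca1 and Bard1, which encode the partners of an E3 ubiquitin ligase, were at 0.07 and 0.0038 on the log2 fold change scale. Brca2, a mediator of strand exchange, and Palb2, its link to BRCA1, were at -0.03 each. The motor protein gene Rad54l had a log2 fold change of 0.06 and Rbbp8, which encodes the end resection factor CtIP, one of -0.10.

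In the Fanconi anemia pathway Fancd2 had the lowest log2 fold change of 6 genes. It encodes the protein that, joined with FANCI and ubiquitinated, marks a crosslink for repair. It was at 20.0 and 19.7 FPKM in the Tox4 libraries and 21.9 and 22.1 FPKM in the Luc libraries. The groups did not overlap, and the log2 fold change of -0.14 (SE 0.04) did not pass in limma (adjusted p = 0.114) and did in limma-voom (-0.15, adjusted p = 0.0328). Fancd2 (chromosome 6, 113531682 to 113597017, plus strand) shares 257 bases of exon with Fancd2os on the opposite strand. Its partner gene Fanci had a log2 fold change of -0.06. The core complex genes Fanca, Fancb, Fancc and Fancg had log2 fold changes from -0.06 to 0.08, the highest being that of Fancg, at 8.41 and 8.19 FPKM in the Tox4 libraries, against 7.64 and 7.97 FPKM in the Luc libraries (adjusted p = 0.494).

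Of the 5 end-joining genes, Xrcc5, a subunit gene of the Ku ring that caps broken ends, had the lowest log2 fold change. It was at 45.8 and 45.2 FPKM with Tox4 esiRNA and 51.9 and 48.3 FPKM with Luc esiRNA (log2 fold change -0.14, SE 0.04, limma adjusted p = 0.155). Xrcc6, which encodes the other Ku subunit, was at 33.0 and 33.1 FPKM in the Tox4 libraries and 33.6 and 31.0 FPKM in the Luc libraries, with overlap. Xrcc4, whose product holds DNA ligase IV, was at 10.3 and 11.4 FPKM with Tox4 esiRNA and 10.1 and 8.77 FPKM with Luc esiRNA, on 188 to 273 reads (0.19, SE 0.08, adjusted p = 0.256). The ligase gene Lig4 had a log2 fold change of 0.14 and Prkdc, the kinase gene of the complex, one of 0.01, and neither passed.

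Base excision and single-strand break repair genes were the most abundant of the roles with more than 1 gene, with a median level of 68.2 FPKM over 7 members. Parp1 encodes the enzyme that detects nicks and builds poly(ADP-ribose). It was at 75.3 and 73.6 FPKM in the Tox4 libraries and 65.6 and 67.3 FPKM in the Luc libraries, without overlap (log2 fold change 0.16, SE 0.04, limma adjusted p = 0.0631, limma-voom adjusted p = 0.00706). Ung, the uracil glycosylase gene, was at 43.2 and 44.8 FPKM with Tox4 esiRNA and 40.7 and 40.3 FPKM with Luc esiRNA (0.12, adjusted p = 0.145). Ogg1, the glycosylase gene for oxidized guanine, was at 7.996 and 7.91 FPKM in the Tox4 libraries and 8.69 and 8.60 FPKM in the Luc libraries, without overlap (-0.11, adjusted p = 0.320). The scaffold gene Xrcc1, the ligase genes Lig1 and Lig3 and the endonuclease gene Apex1 had log2 fold changes of -0.05 to 0.02, with overlapping groups. Chek1 and Ung were described because their unadjusted p was under 0.05, a choice made after their values were seen.

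Msh6, the mismatch repair gene of the list, encodes a protein that recognizes mispaired bases. It was at 85.1 and 85.6 FPKM in the Tox4 libraries, against 76.3 and 76.7 FPKM in the Luc libraries. The groups were separate by more than the spread within either, with a log2 fold change of 0.16 (SE 0.03, 95% interval 0.08 to 0.23, limma adjusted p = 0.0549, limma-voom adjusted p = 0.00629). Msh6 lies on chromosome 17 from 87975062 to 87990892 on the plus strand, and 34 bases of its exons overlap Fbxo11 on the opposite strand. The 5 nucleotide excision repair genes, which recognize and cut out bulky lesions, had the narrowest range of the roles with more than 1 gene, from -0.05 for Xpa to 0.04 for the helicase gene Ercc2. Xpa was at 8.01 and 6.99 FPKM with Tox4 esiRNA and 7.97 and 7.60 FPKM with Luc esiRNA, and Ercc2 at 14.7 and 16.3 FPKM with Tox4 esiRNA and 15.2 and 14.7 FPKM with Luc esiRNA. The groups overlapped for all 5, with the damage sensor gene Xpc at a log2 fold change of 0.02, the helicase gene Ercc3 at 0.04 and the nuclease gene Ercc1 at 0.0068.

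**Figure D3:**
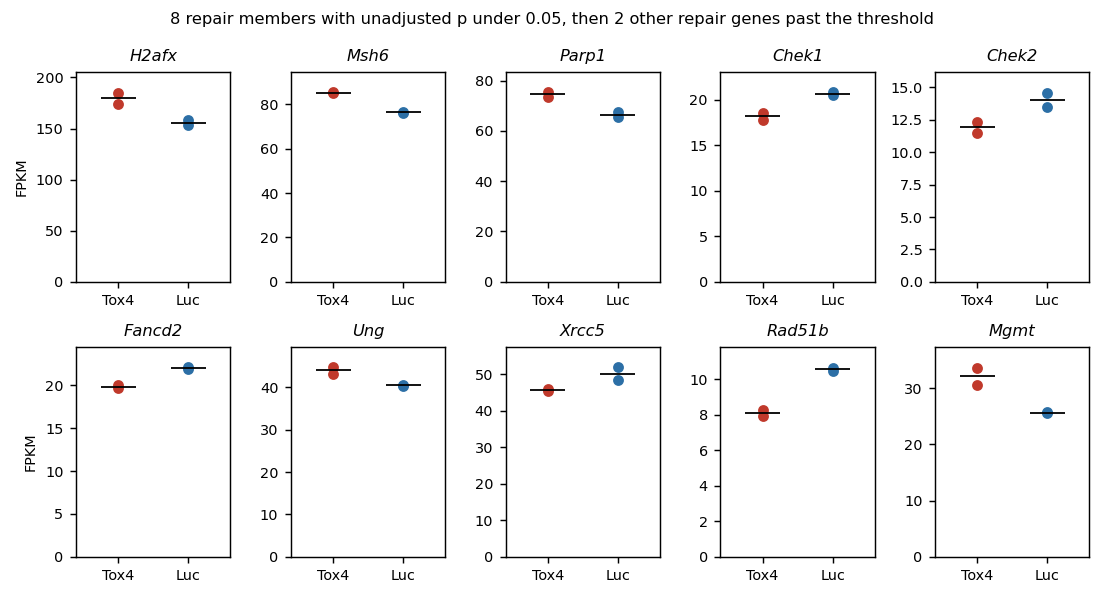
FPKM in each library (points) with the group mean (line), Tox4 esiRNA left of Luc esiRNA, for the 8 repair members with an unadjusted p under 0.05 and for Rad51b and Mgmt, the other repair genes past the adjusted threshold; each axis starts at 0. The groups do not overlap in any of the 10 panels. The genes were picked by p-value, which favours groups without overlap, so this is no separate result. Values without overlap were found for 52.0% of all genes tested. The gaps are small beside the levels. Msh6, for example, was at 85.1 and 85.6 FPKM in Tox4 libraries and 76.3 and 76.7 FPKM in Luc libraries.

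Promoters of Msh6 and Parp1, the members past the threshold in limma-voom as higher that had a RefSeq window, and of Chek2, the member with the lowest log2 fold change, are shown to compare what lies before their starts. Each is the 250 bases before the RefSeq start (GRCm38.p6), 5′ to 3′ on the strand of the gene, at chr17:87974800-87975049 (plus), chr1:180568641-180568890 (plus) and chr5:110839733-110839982 (plus). Capitals mark GC boxes (GGGCGG, the Sp1 site), CCAAT boxes (the NF-Y site) and E2F cores (TTCCCGC or TTTGGCG), searched on both strands; CCGCCC and ATTGG are the reverse forms, the E2F core in the Chek2 window is on the reverse strand, and neighbouring GC boxes may overlap.
Msh6: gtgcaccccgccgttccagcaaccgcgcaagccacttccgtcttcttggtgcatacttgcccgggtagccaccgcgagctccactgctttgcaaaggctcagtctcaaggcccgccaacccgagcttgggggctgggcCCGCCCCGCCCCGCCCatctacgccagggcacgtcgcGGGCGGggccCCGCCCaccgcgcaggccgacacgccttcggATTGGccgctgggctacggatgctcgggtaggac
Parp1: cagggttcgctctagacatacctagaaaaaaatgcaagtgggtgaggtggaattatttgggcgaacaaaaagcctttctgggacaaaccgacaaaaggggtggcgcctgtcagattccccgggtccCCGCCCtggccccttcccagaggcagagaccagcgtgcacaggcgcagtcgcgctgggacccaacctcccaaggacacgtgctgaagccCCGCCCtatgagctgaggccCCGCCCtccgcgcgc
Chek2: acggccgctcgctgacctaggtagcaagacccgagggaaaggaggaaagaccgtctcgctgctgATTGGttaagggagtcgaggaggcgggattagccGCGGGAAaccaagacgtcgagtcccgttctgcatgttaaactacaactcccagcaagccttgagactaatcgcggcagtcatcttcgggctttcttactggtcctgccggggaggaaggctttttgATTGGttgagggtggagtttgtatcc
The Msh6 window held 5 GC boxes and 1 CCAAT box, and the Parp1 window 3 GC boxes. In the Chek2 window were no GC box, CCAAT boxes and an E2F core. The window of Chek1, also past the threshold as lower in limma-voom, held none of these motifs. The windows shown were picked by change, and a link between motif and change was not tested. RefSeq windows were matched for 34 of the 42 members, 38 windows in all, and not for H2afx, Nbn, Rad50, Rbbp8, Fancd2, Prkdc, Ercc3 and Xpc. A GC box was in 60.5% of member windows, against 32.7% of all 32851 windows and 59.4% of the windows of tested genes. An E2F core was in 23.7% of member windows, 4.94% of all windows and 9.01% of those of tested genes, and a CCAAT box in 19 of the 38 member windows, 33.8% of all windows and 35.6% of those of tested genes. A p53 half-site was in 5.26% of member windows, 7.13% of all windows and 5.61% of those of tested genes. The ETS core (CCGGAAG) was in 13.2%, 6.91% and 13.4% of the same 3 sets of windows, and the cell cycle motif CHR (TTTGAA) in 2.63%, 16.0% and 9.87%. The member shares for CHR and the p53 half-site rest on 1 and 2 of the 38 windows. Lig1, Lig4 and Rad54l entered with more than 1 window each. These matches are letters in a window, not sites shown to be bound.

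Subunits of 1 complex were compared as ratios of FPKM within each library, for 10 pairs, as a description with no test. The MRN ratio of Rad50 to Mre11a was 1.94 and 1.94 in the Tox4 libraries and 1.84 and 2.00 in the Luc libraries, with overlap. The Ku ratio of Xrcc5 to Xrcc6 was lower without overlap, at 1.39 and 1.37 with Tox4 esiRNA and 1.55 and 1.56 with Luc esiRNA. The ratio of Atr to Atrip was 1.90 and 1.63 in the Tox4 libraries and 2.05 and 2.25 in the Luc libraries, and also did not overlap. Fancd2 to Fanci was lower (1.09 and 1.13 with Tox4 esiRNA, 1.15 and 1.20 with Luc esiRNA) and Brca1 to Bard1 higher (1.14 and 1.17 with Tox4 esiRNA, 1.08 and 1.12 with Luc esiRNA). The ratios of the other 5 pairs, Nbn to Mre11a, Lig4 to Xrcc4, Brca2 to Palb2, Lig3 to Xrcc1 and Ercc2 to Ercc3, overlapped between the groups. Lack of overlap is common with 2 libraries a group, and held for 52.0% of the 12403 genes tested. Separate ratios alone therefore do not show a change in the balance of a pair. How often ratios of unrelated genes separate was not tested.

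**Figure D4:**
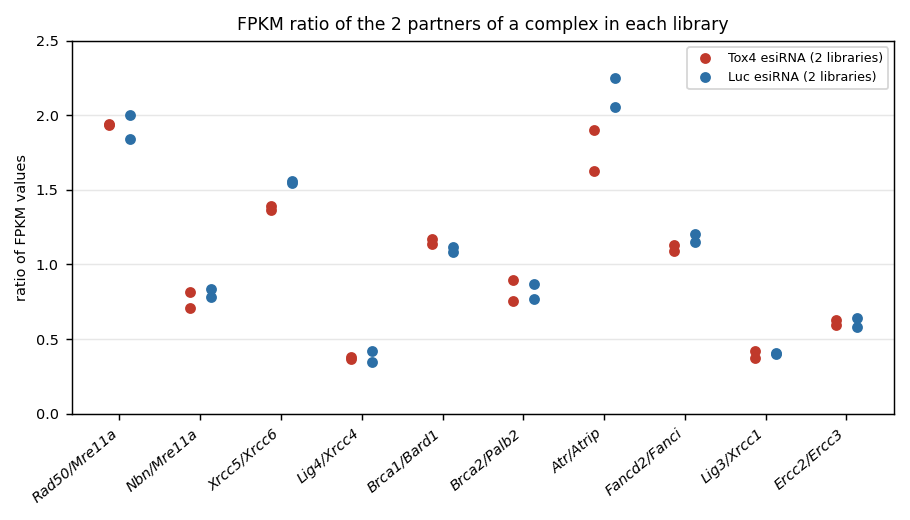
Ratio of the FPKM values of 2 partners of a complex in each library (points), Tox4 esiRNA in red left of Luc esiRNA in blue, for 10 pairs. The groups stand apart most clearly for Xrcc5 to Xrcc6 (1.39 and 1.37 in Tox4 libraries, 1.55 and 1.56 in Luc libraries). For Atr to Atrip (1.90 and 1.63 in Tox4 libraries, 2.05 and 2.25 in Luc libraries) the groups do not overlap. There the Tox4 libraries differ by more than the gap between the groups.

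Of 107 other repair genes listed, 104 were found by symbol, and 1 rose, 1 fell and 102 did not pass, with a median log2 fold change of 0.0076. The 1.92% called was no more than the 4.51% of all genes tested. Mgmt, which encodes the enzyme that removes methyl groups from guanine, rose, with 30.6 and 33.5 FPKM in the Tox4 libraries and 25.6 and 25.7 FPKM in the Luc libraries, on 292 to 369 reads. In limma this was a log2 fold change of 0.31 (SE 0.05, adjusted p = 0.0354). Mgmt also passed in limma-voom (0.32, adjusted p = 0.0146). Rad51b, a gene of homologous recombination, fell, with 8.24 and 7.94 FPKM in the Tox4 libraries and 10.5 and 10.6 FPKM in the Luc libraries, on 81 to 159 reads (-0.34, SE 0.05, adjusted p = 0.0301). Fewer cells that express a gene and less of its RNA per cell cannot be told apart in these bulk samples. Mgmt was past the threshold without Tox4 replicate 1 (adjusted p = 0.0170) and not without Luc replicate 1 (0.172), Luc replicate 2 (0.161) or Tox4 replicate 2 (0.0562). The same held for Rad51b, with 0.0463, 0.172, 0.177 and 0.0636, which also did not pass in limma-voom (adjusted p = 0.0782).

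Of the other genes of the checkpoint, Trp53bp1, whose protein steers breaks towards end joining, had a log2 fold change of 0.18 (22.8 and 21.1 FPKM with Tox4 esiRNA, 19.2 and 19.3 FPKM with Luc esiRNA, limma adjusted p = 0.114), and Rnf168, the ubiquitin ligase gene upstream of it, one of 0.16 (adjusted p = 0.110). Both passed in limma-voom as higher (adjusted p = 0.00647 and 0.0421), as did Ercc5, Rev1 and Mgmt. Of the 104 other repair genes limma-voom called only these 5, while it called 11.8% of all genes tested. Trp53bp1 and Rnf168 were chosen after their values were seen. Against the 0 of 42 repair members called, 10 of 19 p53 target genes tested rose and 0 fell. The median of that list was 0.29 on the log2 scale. Over all genes tested, 1.89% were called higher and 2.62% lower. Without overlap between the groups, 15 of the 19 were higher and 2 lower, against 25.3% and 26.7% of all genes tested. Those 2 were Gadd45a (-0.32, limma adjusted p = 0.0614) and Sesn1 (-0.09, adjusted p = 0.307). Cdkn1a, which encodes the cyclin-dependent kinase inhibitor p21, was at 82.8 and 87.6 FPKM in the Tox4 libraries and 54.8 and 53.1 FPKM in the Luc libraries (0.65, SE 0.04, adjusted p = 0.00265). The p53 gene itself, Trp53, was at 59.3 and 61.9 FPKM with Tox4 esiRNA and 55.4 and 54.0 FPKM with Luc esiRNA and did not pass (0.14, adjusted p = 0.101). Many repair genes are known to share their timing with G1/S and G2/M genes. Among 16 G1/S and 17 G2/M genes limma called 0, against 4.51% of all genes tested. An unadjusted p under 0.05 was found for 1 G1/S and 3 G2/M genes, against 21.6% of all genes tested. The median log2 fold change was 0.02 in both lists. The p53 and cell cycle lists were chosen with earlier results of these data known, and the difference between the lists was not tested.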

How the data were processed

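The authors deposited FPKM values per gene for each library and in a table of the series, which held identical values in 4 of 4 files. The submitters' processing notes name CASAVA 1.8, STAR 2.3.0e and GRCm38.p1. Not given in the sources used here were the counting program, the annotation and whether strand was used, so reads of the 21 members with 34 to 1826 bases of exon on an opposite-strand gene may include that gene's.

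Differences were fitted with limma 3.58.1 (R 4.3.3) on log2(FPKM + 1), two-sided, with an intensity trend and Benjamini-Hochberg adjustment at 0.05 over genes whose mean reached 1 FPKM. All 4 libraries entered, with no covariate (2 residual and 4.01 prior degrees of freedom). A fold change on this scale understates that of low genes. Whole reads were worked back from the FPKM steps for 100% of genes listed above 0 (relative tolerance 2e-12) and fitted with limma-voom. The scale of gene lengths was set by the commonest match to GENCODE exon lengths (129 genes). On that scale the reads of 4.46% of these genes were multiplied by a whole number to make the length whole. Replicates varied beyond counting error (chi-square per degree of freedom 1.96 in the Tox4 group and 1.64 in the Luc group). Coordinates and overlaps came from GENCODE (GRCm38), which held 98.7% of the identifiers.

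The members and lists were chosen with earlier results of these data known. Named were members past the threshold, those with the highest and lowest log2 fold change of each role, those at the highest and lowest level, and other repair genes past the threshold. The alternatives were other pseudocounts, filters, variance models and scalings, a replicate block and leaving out each library.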

Additional observations from a re-analysis of the deposited data

How the results depend on the processing

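Of the 13 alternatives, 0 repair members were called with either other pseudocount, without the low-value filter, without the intensity trend, with median centring, with the replicate block, and without Luc replicate 1, Luc replicate 2 or Tox4 replicate 2. Members called as higher numbered 3 with a mean of at least 5 FPKM required, 2 with quantile normalization and 3 with limma-voom, which also called 3 as lower. Leaving out 1 library gave 0 to 1 members as higher, and a median log2 fold change of the members between -0.012 and 0.015, on both sides of 0. Each fit without 1 library leaves a group with a lone sample, assumed to vary like the other group.

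Over all genes, the counts called were 146 higher and 202 lower without the filter, 365 higher and 476 lower from 5 FPKM, 33 higher and 45 lower without the trend, and 738 higher and 728 lower with limma-voom. Without 1 library they were 27 to 176 higher and 34 to 296 lower, lowest without a Luc library. Other repair genes numbered 0 higher and 1 lower without the filter, 0 and 0 without the trend, 5 higher and 0 lower with limma-voom, and 0 to 2 higher and 0 to 1 lower without 1 library. The cause of these shifts was not tested.

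Whether libraries with the same replicate number were handled as pairs is not in the labels. Their deviations from the group mean had a correlation of -0.04 over genes. With 2 libraries a group this cannot show whether they were paired. With the replicate block, 222 genes were higher and 334 lower, and the smallest adjusted p of a member was 0.0711 (H2afx). With 2 libraries a group and 112 to 6984 reads a member, differences smaller than the intervals given could not be shown.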
